A study of Mus musculus with 75 samples.

Results

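Claudins are the membrane proteins that set which ions and how much water pass between the cells of an epithelium, and each stretch of the renal tubule uses its own combination of them. Claudin 2 forms a pore for cations and water in the proximal tubule, claudin 10 forms pores in the proximal tubule and the thick ascending limb, and claudins 16 and 19 together govern the passage of calcium and magnesium in the thick ascending limb. Claudins 3, 4, 7 and 8 belong to the distal tubule and the collecting duct, and claudin 1, a sealing claudin of many epithelia, lines Bowman's capsule in the kidney. The 9 genes described here, Cldn1, Cldn2, Cldn3, Cldn4, Cldn7, Cldn8, Cldn10, Cldn16 and Cldn19, were taken by symbol from the 32245 rows of the count table and are followed through all 12 groups of kidneys. Cldn1, Cldn3, Cldn4 and Cldn7 were called higher in UUO than in contralateral kidneys of IgG and PbWT control mice, as were 16.3% and 17.9% of all genes. Cldn10 was among those called lower there, as were 18.2% and 19.4%. In VeWT control mice Cldn1, Cldn4 and Cldn7 were called higher (10% of all genes) and Cldn10 lower (8.38%). Several of these calls were lost under other settings. Cldn10 was also the 1 claudin whose response was called different between groups of mice, PbKO and PbWT, where 8.55% of all genes were. That call was lost in 1 fit over all 12 groups.

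The study asked how the Angpt/Tie2 pathway and its neighbour PDGF-B shape the response of the mouse kidney to unilateral ureteral obstruction (UUO), in which 1 ureter is ligated. Whole kidneys of adult mice of both sexes were taken 3 days later, and the unobstructed contralateral (CL) kidney served for comparison. RNA of 75 kidneys was sequenced, with 1 library per kidney. IgG mice (8 CL and 8 UUO libraries) received a human IgG Fc control and ABT mice (7 and 7) ABTAA, an antibody that binds and clusters Angpt2 so that it activates the receptor Tie2. VeKO mice (6 CL, 8 UUO) carried floxed Veptp (gene symbol Ptprb), deleted in endothelium by tamoxifen-induced Cdh5-CreERT2, and VeWT mice (7 CL, 8 UUO) were their controls, Cre carriers with 1 wild-type and 1 floxed allele and no tamoxifen induction. PbKO mice (4 CL, 4 UUO) carried floxed Pdgfb and a tamoxifen-inducible CreERT2 driven by the Actb promoter in all tissues, and PbWT mice (4 CL, 4 UUO) were Cre-negative mice with 1 or both Pdgfb alleles floxed. The crosses had a mixed genetic background, the mice given ABTAA or IgG were C57BL6/J mice or wild-type mice of those crosses without being told apart in the labels, and kidneys of sham-operated mice are among those labelled PbWT CL without being marked. The 9 claudins described here are epithelial, whereas the Veptp deletion was restricted to endothelium and ABTAA acts on it.

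Counts per library totalled 172827 to 2341800 (median 757897), with 888357 to 2049326 in PbWT UUO and 337545 to 1249343 in PbKO UUO. Levels are given in CPM, counts scaled to a common library total after TMM scaling, which corrects for unequal composition. Each arm (ABTAA, Veptp, Pdgfb) was fitted over its 4 groups with edgeR's quasi-likelihood test, and a gene was called changed at a Benjamini-Hochberg adjusted p under 0.05. All 9 claudins had enough counts to be tested in all 3 arms, among 9579, 11916 and 10923 genes. Nothing in the labels says that libraries of a group shared an animal, and p-values measure the spread between these libraries. Library names have 2 forms, 45 plain ones (a letter and a number, as B4) and 30 joined ones (with a low line between letter and number), and both occur in each group of the ABTAA and Veptp arms. The forms stand apart in several claudins, and several results below are therefore also given by form, though not each one. Ptprb stood at 54.7 CPM (mean) in VeWT CL and 34.6 in VeKO CL, and at 52.0 and 33.8 in the UUO kidneys, and neither difference was called (-0.63, SE 0.36, adjusted p = 1, and -0.69, SE 0.33, adjusted p = 0.9998). Pdgfb was not lower in the CL libraries labelled PbKO (19.4 CPM, against 10.6 in PbWT CL), and in UUO it stood at 37.8 CPM in those labelled PbKO against 53.9 in PbWT. Neither difference was called (0.78, SE 0.33, adjusted p = 1, and -0.47, SE 0.21, adjusted p = 0.124), while the response of Pdgfb to UUO was smaller in the libraries labelled PbKO (-1.26, SE 0.39, adjusted p = 0.0458). PbKO is therefore used below only as a group's name, also in the words PbKO mice. In 24 libraries Xist and Y chromosome genes both reached 10 counts, among them all 4 labelled PbKO UUO, 2 of PbWT UUO and none of those labelled PbKO CL.

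The claudins are single genes scattered over the mouse genome, apart from the neighbours Cldn3 and Cldn4 on chromosome 5 (chr5:134986214-134987472, plus strand, and chr5:134945119-134946934, minus strand) and Cldn1 and Cldn16 on chromosome 16 (chr16:26356642-26371841, minus, and chr16:26463135-26482765, plus). Cldn8 lies elsewhere on that chromosome (chr16:88560828-88563183, minus), Cldn2 on the X chromosome (chrX:139800828-139811386, plus), Cldn7 on chromosome 11 (chr11:69964779-69967885, plus), Cldn10 on chromosome 14 (chr14:118787908-118875489, plus) and Cldn19 on chromosome 4 (chr4:119255414-119262438, plus), all in GRCm38 coordinates from GENCODE vM21, the build the counts were made on. An antisense gene overlaps 40 bases of Cldn3 (Wbscr25) and 472 exon bases of Cldn19 (Gm12927), and reads of such partners may be counted with the claudin because the use of strand in counting is not given in the sources used here. Promoter windows of 250 bases before a RefSeq start (GRCm38.p6) existed for 8 of the 9 genes, 11 windows of 32851 in all; for Cldn8 there was no entry. The windows of Cldn4 and Cldn1, the claudins with the largest rises in IgG mice, and both windows of Cldn10, which fell most there, are printed 5′ to 3′ on the strand of the gene. Capitals mark exact matches on either strand to any of 5 motifs. The AP-1 site was searched as TGACTCA. The E-box bound by Snail and Zeb factors was searched as CAGGTG. The core of the HNF1 site was searched as GTTAAT. The grainyhead-like motif, searched as AACCNGTT, and the TATA box, searched as TATAAA, had no match in these 4 windows. The motifs did not overlap one another there.
Cldn4 chr5:134946935-134947184 minus: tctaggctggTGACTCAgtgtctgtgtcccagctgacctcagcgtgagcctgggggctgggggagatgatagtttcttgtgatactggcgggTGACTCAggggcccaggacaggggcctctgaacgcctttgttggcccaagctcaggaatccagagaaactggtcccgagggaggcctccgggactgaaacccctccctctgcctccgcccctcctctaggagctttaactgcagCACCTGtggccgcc
Cldn1 chr16:26371840-26372089 minus: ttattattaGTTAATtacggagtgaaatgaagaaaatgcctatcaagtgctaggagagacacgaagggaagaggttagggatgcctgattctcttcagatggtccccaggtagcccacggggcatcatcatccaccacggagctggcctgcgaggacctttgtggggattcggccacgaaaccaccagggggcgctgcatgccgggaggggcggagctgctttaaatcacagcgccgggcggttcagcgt
Cldn10 upstream start chr14:118787621-118787870 plus: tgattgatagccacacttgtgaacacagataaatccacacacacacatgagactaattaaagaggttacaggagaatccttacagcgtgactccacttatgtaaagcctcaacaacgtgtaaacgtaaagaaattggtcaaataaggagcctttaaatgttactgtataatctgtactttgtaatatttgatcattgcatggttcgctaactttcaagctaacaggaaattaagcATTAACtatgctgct
Cldn10 downstream start chr14:118854700-118854949 plus: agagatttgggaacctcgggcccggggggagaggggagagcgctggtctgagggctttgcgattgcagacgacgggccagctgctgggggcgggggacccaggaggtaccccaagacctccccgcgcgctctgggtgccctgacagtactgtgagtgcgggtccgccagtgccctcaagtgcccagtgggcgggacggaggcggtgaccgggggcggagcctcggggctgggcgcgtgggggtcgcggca
The Cldn4 window held TGACTCA at 240 and 158 bases before the start and CAGGTG, read on the other strand, at 14 bases, with 62.0% G and C. Of all windows 4.46% held TGACTCA and 0.167% held it 2 or more times, and 17.2% held CAGGTG. The Cldn1 window (55.6% G and C) had a GTTAAT match at 241 bases and the upstream Cldn10 window (36.0%) had one at 15 bases, a motif found in 6.43% of all windows. The downstream Cldn10 window (72.4%) held none of the 5 motifs. These matches describe the letters only. The 2 Cldn10 starts give proteins of different ion selectivity, and the counts, summed over the gene, cannot tell them apart.

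In control mice UUO came with more Cldn1, Cldn4 and Cldn7 and with less Cldn10. In IgG mice 4 of the 9 were higher in UUO than in CL kidneys (Cldn1, Cldn3, Cldn4 and Cldn7), where 16.3% of all genes tested were called higher, and 2 were lower (Cldn10 and Cldn19), where 18.2% were. In ABT mice 3 were higher (Cldn1, Cldn3, Cldn4; 12.6% of all genes) and 2 lower (Cldn8, Cldn10; 12.5%). In VeWT mice 3 were higher (Cldn1, Cldn4, Cldn7; 10% of all genes) and 1 lower (Cldn10; 8.38%), and in VeKO mice 1 was higher (Cldn1; 4.47%) and 1 lower (Cldn8; 3.48%). In PbWT mice 4 were higher (Cldn1, Cldn3, Cldn4, Cldn7; 17.9%) and 2 lower (Cldn2, Cldn10; 19.4%), and in PbKO mice 2 were higher (Cldn1, Cldn4; 3.95%) and none lower (2.42%). At an unadjusted p under 0.05 stood 9, 6, 7, 5, 6 and 5 of the 9 in the same order of groups, where 43.1%, 35.1%, 29.4%, 20.2%, 45.2% and 19.9% of all genes did. Over the 9 genes the median log2 fold change lay between -0.39 (IgG) and 0.08 (PbKO), against -0.01 to 0.04 over all genes. The UUO and CL kidneys were fitted as independent libraries, since the labels do not say which belong together (the 3 ABT pairs of the same number, which deviated together, were also fitted as pairs), and in bulk tissue fewer cells of a type and less RNA per cell cannot be told apart.

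**Figure D1:**
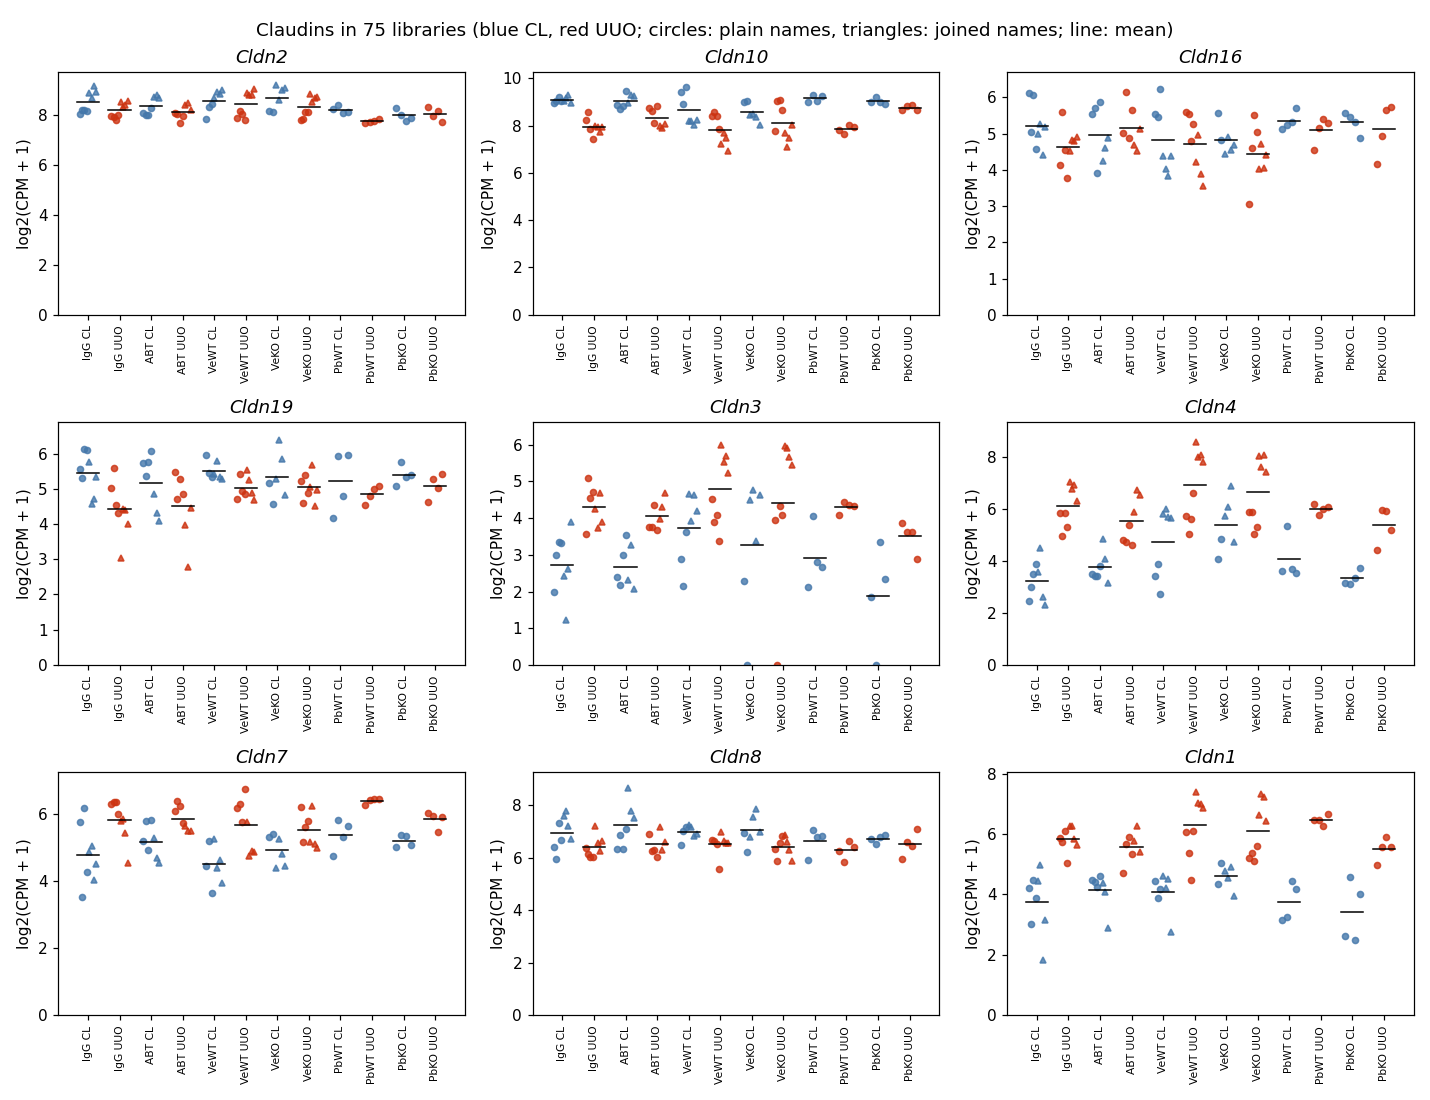
Levels of the 9 claudins in all 75 libraries, 1 panel per gene, on a log2(CPM + 1) scale, with the 12 groups along the x axis (blue CL, red UUO; circles for plain and triangles for joined library names). The red points of Cldn1 and Cldn4 sit above the blue ones and those of Cldn10 below them in the IgG and PbWT groups, while Cldn16 overlaps in all 6 pairs of groups.

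Cldn4, a claudin of the collecting duct that can be removed and replaced rapidly, had the largest rise in IgG mice. It stood at 3.96 to 21.3 CPM (median 8.59, n = 8) in IgG CL and 30.4 to 131 (median 67.2, n = 8) in IgG UUO kidneys, and the groups did not overlap. The log2 fold change was 2.95 (SE 0.37, adjusted p = 7.9e-08), 7.73-fold. In ABT mice Cldn4 stood at 7.96 to 27.8 CPM (median 10.2, n = 7) in CL and 23.5 to 104 (median 40.9, n = 7) in UUO kidneys, and rose by 2.06 on the log2 scale (SE 0.36, adjusted p = 4.8e-05). Among UUO libraries the forms of name stood apart, at 30.4 to 56.2 CPM for plain and 78.1 to 131 for joined names in IgG and at 23.5 to 40.9 and 57.7 to 104 in ABT mice. Within the forms the log2 fold change was 2.50 (adjusted p = 6.0e-06) and 3.20 (adjusted p = 6.6e-07) in IgG and 1.58 (adjusted p = 7.1e-04) and 2.30 (adjusted p = 1.5e-04) in ABT mice. Over all libraries the ABT groups touched because 1 CL library, replicate 5, stood at 27.8 CPM, with the next at 16.0. In PbWT mice the CL libraries stood at 11.3, 39.8, 12.0 and 10.7 CPM and the UUO libraries at 71.6, 53.4, 62.7 and 65.9 (log2 fold change 1.82, SE 0.30, adjusted p = 3.1e-05). Without CL replicate 2, the library at 39.8 CPM, it was 2.47 (adjusted p = 2.6e-07). In PbKO mice they stood at 7.82, 7.65, 9.24 and 12.2 CPM in CL and 20.4, 61.7, 59.2 and 35.8 in UUO (2.28, SE 0.38, adjusted p = 4.5e-04; 0.119 in 1 fit over all 12 groups). All 4 UUO libraries lay above all 4 CL libraries in both groups of mice.

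In the Veptp arm the level of Cldn4 moved with the form of library name as well as with obstruction. VeWT CL libraries stood at 5.68 to 13.7 CPM (n = 3) among plain and 48.6 to 62.4 (n = 4) among joined names, and VeWT UUO libraries at 31.6 to 96.7 (n = 4) and 221 to 381 (n = 4). Within each form UUO and CL did not overlap. The same held in VeKO mice, with 15.6 to 27.5 CPM (n = 2) in CL and 31.9 to 58.1 (n = 4) in UUO among plain names, and 25.6 to 117 (n = 4) and 170 to 265 (n = 4) among joined names. Pooled over the forms the log2 fold change was 2.19 in VeWT (SE 0.56, adjusted p = 0.0052) and 1.40 in VeKO (SE 0.58, adjusted p = 0.145). With the form as a covariate it was 1.68 in VeKO (adjusted p = 8.3e-06), past the threshold. Without the 4 numbers of joined names that carry opposite genotypes in CL and UUO kidneys (3, 4, 7 and 8) the VeWT value was 1.93 (adjusted p = 0.0747). Whether the forms are separate preparations is not given in the labels.

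Cldn1 was the 1 claudin called higher in all 6 groups of mice. It stood at 2.55 to 30.7 CPM (median 15.7) in IgG CL and 31.7 to 76.2 (median 56.9) in IgG UUO, which amounts to 1.80 on the log2 scale (SE 0.26, adjusted p = 1.4e-06), and at 6.37 to 23.4 (median 19.9) and 25.1 to 75.7 (median 50.5) in ABT CL and UUO (1.48, SE 0.27, adjusted p = 7.4e-05). Neither pair of groups overlapped. In VeWT mice it stood at 5.79 to 23.6 CPM (median 17.6) in CL and 21.5 to 167 (median 92.8) in UUO (2.44, SE 0.39, adjusted p = 4.0e-05), and in VeKO mice at 14.4 to 32.1 (median 24.6) and 33.5 to 160 (median 67.3) (1.84, SE 0.41, adjusted p = 0.0038; 0.831 among plain names alone, with 2 CL libraries, and 0.113 without the joined-name numbers of opposite genotype). VeWT UUO libraries fell into 21.5 to 68.6 CPM among plain and 117 to 167 among joined names, and CL libraries showed no such gap (13.7 to 21.0 and 5.79 to 23.6). The response to UUO over both genotypes was accordingly 2.71 (SE 0.20, adjusted p = 1.7e-12) among joined and 1.06 (SE 0.35, adjusted p = 0.0666) among plain names, a difference of 1.65 (unadjusted p = 6.0e-04, adjusted p = 0.0934). By that test of the forms none of the 9 claudins was called in the Veptp arm, where 0.436% of all genes were, or in the ABTAA arm, where 0.0313% were, and at an unadjusted p under 0.05 stood Cldn1 in the Veptp arm (9.57% of all genes) and Cldn8 and Cldn10 in the ABTAA arm (9.75%).

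**Figure D2:**
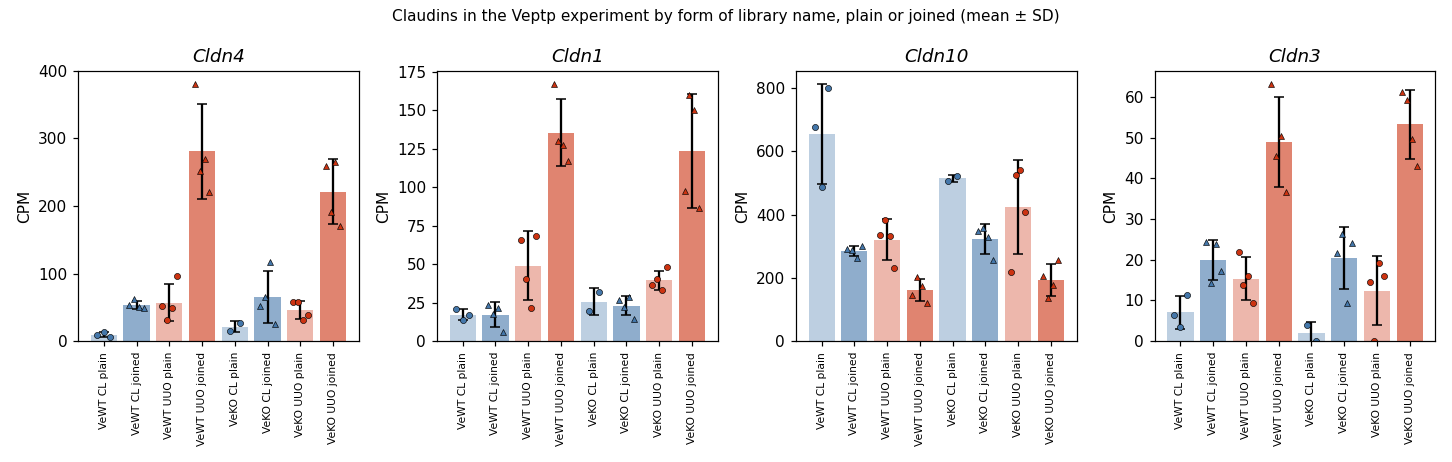
CPM of Cldn4, Cldn1, Cldn10 and Cldn3 in the libraries of the Veptp arm, 1 panel per gene, with groups along the x axis and the 2 forms of library name drawn apart (circles for plain, triangles for joined names). Libraries with joined names have the higher mean in Cldn4, up to 381 CPM in VeWT UUO against 96.7 for plain names, and the lower mean in Cldn10. The forms overlap for Cldn4 in VeKO CL and for Cldn10 in VeKO UUO.

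Cldn3, neighbour of Cldn4 and a sealing claudin of the distal nephron, rested on few counts, with a median of 8 per library and 40 of 75 libraries under 10. It stood at 1.33 to 13.8 CPM (median 6.07) in IgG CL and 10.8 to 33.2 (median 20.3) in IgG UUO, with some overlap, and rose by 1.52 (SE 0.33, adjusted p = 3.3e-04). In ABT mice it stood at 3.18 to 10.7 CPM (median 4.24) and 11.7 to 24.6 (median 14.7), without overlap, and rose by 1.55 (SE 0.34, adjusted p = 4.8e-04). In PbWT mice it stood at 3.39, 15.6, 6.01 and 5.34 CPM in CL and 16.0, 20.6, 19.4 and 19.0 in UUO (1.36, SE 0.37, adjusted p = 0.0046). The call in PbWT was lost without the libraries with both Xist and Y counts (1.10, adjusted p = 0.215) and in 1 fit over all 12 groups (1.33, adjusted p = 0.0668). The other groups had fold changes between 1.13 and 1.32 that did not pass the test, 1.13 in VeWT (SE 0.47, adjusted p = 0.0928), 1.17 in VeKO (SE 0.50, adjusted p = 0.162) and 1.32 in PbKO (SE 0.55, adjusted p = 0.151). With the form of name as a covariate it was 1.34 in VeWT (adjusted p = 2.5e-05) and 1.41 in VeKO (adjusted p = 6.9e-05). Among joined names UUO and CL did not overlap in either genotype, at 36.5 to 63.2 against 14.2 to 24.4 CPM in VeWT and 43.0 to 61.3 against 9.33 to 26.3 in VeKO.

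Cldn7, found along the basolateral side of distal tubule and collecting duct cells, rose in 3 groups of mice, by 2.27-fold at most. In IgG mice it stood at 10.6 to 71.0 CPM (median 25.0) in CL and 22.1 to 81.5 (median 60.2) in UUO, and the groups overlapped over most of their range (0.78, SE 0.28, adjusted p = 0.0297). In VeWT mice it stood at 11.4 to 37.0 CPM (median 21.0) and 26.0 to 106 (median 53.5), with overlap (1.18, SE 0.30, adjusted p = 0.0050). The PbWT CL libraries stood at 26.0, 55.4, 39.1 and 49.1 CPM and the UUO libraries at 76.7, 84.4, 86.1 and 86.9, without overlap (0.98, SE 0.18, adjusted p = 9.8e-05). In ABT, VeKO and PbKO mice the log2 fold changes were 0.65 (adjusted p = 0.101), 0.66 (0.240) and 0.67 (0.0554), and the PbKO value passed without PbWT CL replicate 1 or 2 or PbKO UUO replicate 3 (adjusted p = 0.0245, 0.0429 and 0.0331). The 3 ABT pairs of libraries that share a number in their names deviated together, and with that number as a block Cldn7 passed at 0.72 (adjusted p = 0.0402). In the same 6 libraries without the block its adjusted p was 0.0644. The call in IgG mice was lost in 7 of 30 fits that each left out 1 library (IgG CL replicates 2, 5, 7 and 8 and UUO replicates 1, 2 and 3), within either form of name alone (adjusted p = 0.0694 for plain and 0.0597 for joined names) and without the libraries that held both Xist and Y counts (0.53, adjusted p = 0.345). The VeWT call was lost without those libraries too (0.84, adjusted p = 0.0833), and among joined names alone (0.53, adjusted p = 0.261).

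Cldn10 was called lower in IgG, ABT, VeWT and PbWT mice, and had the largest fall of the 9 claudins in IgG, VeWT and PbWT mice, while in ABT and VeKO mice Cldn8 had a lower value. In IgG mice it stood at 502 to 629 CPM (median 530) in CL and 171 to 379 (median 242) in UUO, without overlap, and fell by 1.10 on the log2 scale (SE 0.15, adjusted p = 5.7e-07). In ABT mice it stood at 418 to 705 CPM (median 501) and 236 to 458 (median 276), and the overlap came from plain names. The log2 fold change there was -0.72 (SE 0.16, adjusted p = 8.7e-04), with -0.38 (adjusted p = 0.242) among plain names alone, and among joined names the groups stood apart at 501 to 619 and 236 to 264 CPM. In VeWT mice Cldn10 stood at 261 to 801 CPM (median 300) in CL and 121 to 382 (median 217) in UUO (-0.88, SE 0.31, adjusted p = 0.0438), and in VeKO mice at 256 to 522 (median 353) and 135 to 542 (median 237) (-0.33, SE 0.32, adjusted p = 0.651). Here too the forms of name split the libraries, with VeWT CL at 486 to 801 CPM among plain and 261 to 300 among joined names. Within each form VeWT UUO lay below VeWT CL, at 231 to 382 and 121 to 203 CPM. With the form as a covariate the VeKO value was -0.57 (adjusted p = 0.0115). The VeWT call was lost in 8 of 29 fits that left out 1 library (VeWT CL replicates 1 to 3 and UUO replicates 4 to 8), by edgeR's exact test (-0.84, adjusted p = 0.0540), without the libraries with both Xist and Y counts (-0.83, adjusted p = 0.109) and without the joined-name numbers with opposite genotypes (-0.92, adjusted p = 0.138).

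Cldn2, the cation and water pore of the proximal tubule, was called in 1 of the 6 groups of mice. It fell in PbWT mice, from 304, 337, 271 and 283 CPM in CL to 207, 212, 219 and 228 in UUO, without overlap (-0.46, SE 0.13, adjusted p = 0.0079). Scaling by library totals alone, under which the median over all genes went from 0.04 to 0.41, removed that call (-0.09, adjusted p = 0.580), as did leaving out the libraries with both Xist and Y counts (-0.51, adjusted p = 0.103). In IgG mice it stood at 267 to 586 CPM (median 354) and 222 to 377 (median 293), a difference of -0.39 that did not pass (SE 0.17, adjusted p = 0.0777) except without IgG CL replicate 1 (-0.46, adjusted p = 0.0416). Within each form of name the IgG groups did not overlap, at 267 to 298 against 222 to 260 CPM among plain and 409 to 586 against 325 to 377 among joined names, and with the form as a covariate the value was -0.37 (adjusted p = 0.0025). In ABT mice it was -0.26 (adjusted p = 0.330), and -0.36 (adjusted p = 0.0238) with the number block over 6 libraries, whose adjusted p without the block was 0.126. In each of the 8 groups of the ABTAA and Veptp arms the libraries with joined names lay above those with plain ones, and in VeWT UUO kidneys they stood at 452 to 534 against 225 to 288 CPM. VeWT, VeKO and PbKO mice had values of -0.11 (SE 0.23), -0.37 (SE 0.23) and 0.04 (SE 0.14), none of them called.

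Cldn8, which forms the chloride pathway of the collecting duct together with Cldn4, had a negative log2 fold change in all 6 groups of mice and was called in 2. In ABT mice it stood at 79.0 to 403 CPM (median 136) in CL and 63.4 to 141 (median 78.0) in UUO (-0.88, SE 0.29, adjusted p = 0.0210), and in VeKO mice at 73.3 to 230 (median 122) and 57.6 to 115 (median 87.0) (-0.72, SE 0.21, adjusted p = 0.0316). Both pairs of groups overlapped. The ABT call was lost without CL replicate 5 (-0.53, adjusted p = 0.138), the library that also stood apart for Cldn4, and the VeKO call in 5 of 29 fits that left out 1 library (VeKO CL replicates 4 and 5 and UUO replicates 2, 7 and 8). Scaled to library totals alone both calls were lost (-0.75, adjusted p = 0.0767, and -0.67, adjusted p = 0.153). Within plain names the values were -0.25 (adjusted p = 0.555) and -0.12 (adjusted p = 0.967), and within joined names -1.35 (adjusted p = 0.0021) and -0.93 (adjusted p = 0.0044), where the ABT groups did not overlap (183 to 403 CPM in CL and 78.0 to 141 in UUO). In the other groups the values were -0.63 in IgG (SE 0.28, adjusted p = 0.0746), -0.43 in VeWT, -0.39 in PbWT and -0.10 in PbKO. The PbWT value passed without PbWT CL replicate 1 (-0.59, adjusted p = 0.0187) and the IgG value in 4 of 30 fits, without IgG CL replicate 1 or 2, IgG UUO replicate 5 or ABT CL replicate 5 (adjusted p = 0.0341 at the lowest). Cldn4 and Cldn8, which serve the same pathway, carried fold changes of opposite sign in each group of mice, also without TMM scaling, where Cldn8 in PbWT and PbKO lay within 0.01 on the log2 scale of no change.

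Of Cldn16 and Cldn19, partners in the thick ascending limb, Cldn19 was called lower in 1 of the 6 groups of mice and Cldn16 in none. Cldn19 stood at 22.7 to 69.3 CPM (median 42.7) in IgG CL and 7.25 to 47.0 (median 20.2) in IgG UUO, with overlap, and fell by 0.96 on the log2 scale (SE 0.33, adjusted p = 0.0223). The call was lost without IgG CL replicate 3 (adjusted p = 0.0575), without TMM scaling (-0.75, adjusted p = 0.0539) and without the libraries with both Xist and Y counts (-0.98, adjusted p = 0.107). In the other 5 groups of mice Cldn19 had values between -0.66 (ABT, SE 0.34) and -0.19 (PbKO, SE 0.30), none called, although the ABT value passed with the form of name as a covariate (-0.61, adjusted p = 0.0402) and the PbWT value without PbWT CL replicate 1 (-0.83, adjusted p = 0.0070, against -0.55, adjusted p = 0.122, with it). Cldn16 stood at 20.4 to 68.2 CPM (median 33.7) in IgG CL and 12.7 to 47.0 (median 24.6) in IgG UUO (-0.66, SE 0.30, adjusted p = 0.0824) and was called in none of the 15 comparisons, although the IgG value passed without CL replicate 7 or UUO replicate 2 (adjusted p = 0.0450 and 0.0345). Its values elsewhere ran from -0.25 (VeKO) to 0.08 (PbKO). The forms of name did not overlap for Cldn16 in VeWT CL (42.8 to 73.9 CPM for plain and 13.3 to 19.7 for joined names) or for Cldn19 in ABT CL (40.4 to 66.0 and 15.9 to 27.8). Counts were low for both, with medians of 24 (Cldn16) and 26 (Cldn19) per library.

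**Figure D3:**
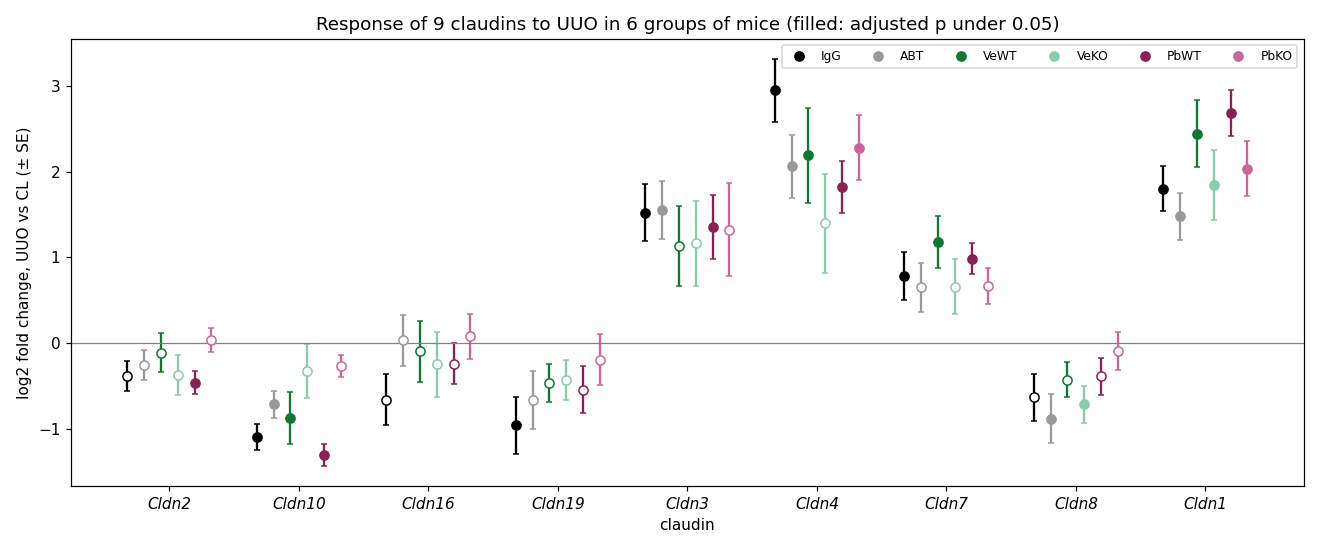
Log2 fold change of UUO against CL kidneys with its standard error for the 9 claudins in the 6 groups of mice, filled where the adjusted p was under 0.05. Cldn1 is filled in all 6 groups, Cldn16 in none, and Cldn10 runs from -1.31 in PbWT to -0.27 in PbKO.

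Treatment with ABTAA and the endothelial Veptp deletion left no called difference in any claudin. Between ABT and IgG mice none of the 9 was called in UUO kidneys, in CL kidneys or in the response to UUO by edgeR's quasi-likelihood test, and 0% of all genes were called in each of these comparisons. At an unadjusted p under 0.05, where 3.55% of all genes lay, stood 1 claudin in UUO kidneys, Cldn10, with 236 to 458 CPM in ABT and 171 to 379 in IgG mice (0.37, SE 0.16, unadjusted p = 0.0252, adjusted p = 0.9999), and none in CL kidneys (3.16%) or in the response (3.29%). The response of Cldn4 differed by -0.89 (SE 0.53, unadjusted p = 0.0981) and that of Cldn10 by 0.39 (SE 0.22, unadjusted p = 0.0867). Between VeKO and VeWT mice none was called or stood at an unadjusted p under 0.05 in UUO kidneys, CL kidneys or the response, where again 0% of all genes were called and 3.58%, 1.92% and 2.71% stood at an unadjusted p under 0.05. Cldn10 was 0.35 higher (SE 0.30) and Cldn4 0.30 lower (log2 fold change -0.30, SE 0.50) in VeKO UUO kidneys. DESeq2 called none of the claudins in these 6 comparisons, and edgeR's exact test none in the 4 it could be run on. The standard errors, 0.16 for Cldn10 between ABT and IgG UUO kidneys and 0.50 for Cldn4 between VeKO and VeWT, bound what could have been detected, and the values do not show that the claudins were alike.

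In the Pdgfb arm the response of 1 of the 9 claudins was called different between groups of mice, where 8.55% of all genes were. In UUO kidneys Cldn10 stood at 224, 198, 259 and 244 CPM in PbWT and 401, 456, 468 and 401 in PbKO, so that every PbKO library lay above every PbWT library. The log2 fold change was 0.90 (SE 0.12, adjusted p = 1.5e-05), 1.87-fold. In CL kidneys the groups overlapped, at 514, 627, 532 and 617 CPM in PbWT and 509, 594, 508 and 478 in PbKO (-0.14, SE 0.12), and 0% of all genes were called between them. UUO lowered Cldn10 by 1.31 in PbWT (log2 fold change -1.31, SE 0.12, adjusted p = 1.0e-08), while in PbKO the value was -0.27 (SE 0.12, adjusted p = 0.223), although all 4 UUO libraries there stood below all 4 CL libraries. The responses differed by 1.04 on the log2 scale (SE 0.18, adjusted p = 5.5e-04), and Cldn10 was the 1 claudin called in that comparison, where 8.55% of all genes were called. The difference in UUO was 0.62 (adjusted p = 8.9e-04) when libraries were scaled to their totals alone, under which the median over all genes went from -0.02 to -0.29. In 1 fit over all 12 groups, which shares the spread of the other arms, it was 0.89 (adjusted p = 0.0864), and the difference of the responses was 1.03 (adjusted p = 0.373). Leaving out any 1 of the 16 libraries kept both calls. As all 4 PbKO UUO libraries held both Xist and Y counts, a value without such libraries could not be had.

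Cldn1 and Cldn7 differed the other way, with less of both in PbKO UUO kidneys. In UUO kidneys Cldn1 stood at 87.6, 88.6, 76.4 and 99.8 CPM in PbWT and 30.6, 46.8, 59.2 and 47.0 in PbKO, without overlap (-0.86, SE 0.22, adjusted p = 0.0079). In CL kidneys its libraries stood at 7.91, 8.53, 21.1 and 17.1 CPM in PbWT and 5.21, 22.9, 4.62 and 15.2 in PbKO, and in PbKO too obstruction raised it (2.04, SE 0.32, adjusted p = 2.3e-04). Cldn7 stood at 76.7, 84.4, 86.1 and 86.9 CPM in PbWT UUO and 64.6, 60.5, 43.5 and 58.9 in PbKO UUO, again without overlap (-0.58, SE 0.17, adjusted p = 0.0203). That call was lost without PbKO UUO replicate 3 (adjusted p = 0.111). In 1 fit over all 12 groups neither passed (-0.91, adjusted p = 0.245 for Cldn1, and -0.57, adjusted p = 0.455 for Cldn7). With 1 claudin higher, where 12% of all genes were, and 2 lower, where 6.6% were, 3 of 9 were called between the UUO kidneys. Before adjustment 5 of the 9 had a p under 0.05 between UUO kidneys (31% of all genes), 2 in the difference of the responses (21.7%) and 0 between CL kidneys (3.47%). Cldn3 stood at 13.6, 11.4, 11.3 and 6.37 CPM in PbKO UUO, below all PbWT UUO libraries, but did not pass (-0.91, SE 0.34, adjusted p = 0.0595; edgeR's exact test gave 0.0242, and it passed without PbWT CL replicate 1 or 2 or PbKO CL replicate 2, at 0.0362 to 0.0491). Cldn2 stood at 323, 252, 285 and 213 CPM in PbKO UUO (0.29 against PbWT, SE 0.14, adjusted p = 0.141), and its response differed by 0.50 (SE 0.19, adjusted p = 0.113). Without PbKO UUO replicate 4 both passed (adjusted p = 0.0495 and 0.0450), and the response also without PbKO CL replicate 1 (0.0408). For Cldn1 and Cldn7 the difference of the responses was -0.65 (SE 0.46, adjusted p = 0.443) for the former and -0.32 (SE 0.28, adjusted p = 0.558) for the latter, so a smaller rise in PbKO was not shown for either.

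**Figure D4:**
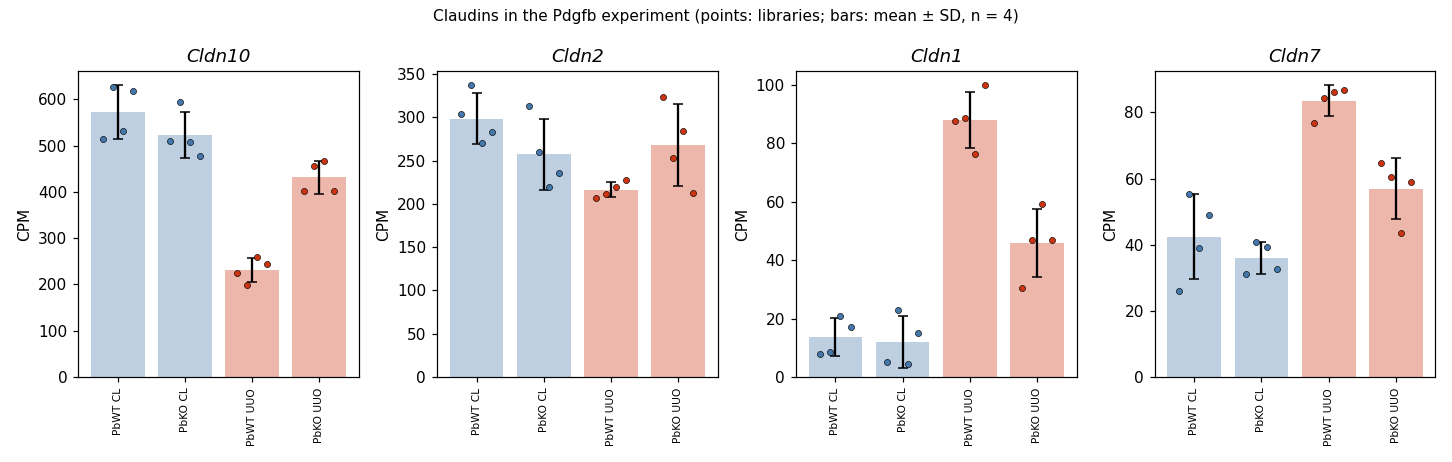
CPM of Cldn10, Cldn2, Cldn1 and Cldn7 in the 16 libraries of the Pdgfb arm, 1 panel per gene, with bars for the mean, error bars for the SD (n = 4) and a point per library. In UUO kidneys the PbKO points of Cldn10 lie above those of PbWT (401 to 468 against 198 to 259 CPM) and the points of Cldn1 and Cldn7 lie below.

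Markers of the tubule segments and of other cell types also differed between groups of kidneys. They did not always move as the claudins of their segment did. In PbWT and PbKO UUO kidneys the summed level of 5 proximal tubule markers was 1240 to 1980 and 2460 to 4500 CPM, that of 5 thick ascending limb markers 2060 to 2490 and 3250 to 4800, and that of 4 distal convoluted tubule markers 218 to 267 and 737 to 971. Of these, 5 of 5, 5 of 5 and 3 of 4 were called higher in PbKO UUO kidneys. The 4 markers of injured tubule summed to 1260 to 2070 CPM in PbWT UUO and 687 to 1240 in PbKO UUO, with 2 of 4 called lower. Principal cell markers summed to 188 to 275 and 248 to 366 CPM, with 1 of 5 called higher, and intercalated cell markers to 97.7 to 166 and 228 to 272, with 3 of 4 called higher. Endothelial markers summed to 126 to 170 CPM in PbWT UUO and 77.5 to 134 in PbKO UUO, with 2 of 4 called lower, and leukocyte markers to 114 to 175 and 64.6 to 90, with both of the 2 tested called lower. Podocyte markers (210 to 266 and 167 to 235 CPM) and fat markers (88.9 to 95.9 and 25.1 to 342) had no call. None of these genes was at 0 in all libraries. In IgG mice the proximal tubule sum was 4110 to 6360 CPM in CL and 1750 to 3390 in UUO, the thick ascending limb sum 5650 to 8330 and 2180 to 4070, and the principal cell sum 214 to 507 and 89.8 to 260, with 5 of 5, 5 of 5 and 2 of 5 called lower. The distal convoluted tubule sum was 1100 to 1700 and 189 to 606 CPM and the intercalated cell sum 209 to 448 and 67.0 to 279, with 3 of 4 called lower in each. The injured tubule sum was 14.1 to 45.5 and 1450 to 2770 CPM, with 4 of 4 called higher, and the leukocyte sum 52.4 to 109 and 107 to 210, with both of the 2 tested called higher. Endothelial markers (84.6 to 180 and 115 to 207 CPM) had 2 of 4, podocyte markers (162 to 299 and 190 to 283) 1 of 4 and fat markers (24.0 to 145 and 61.8 to 600) 1 of the 2 tested called higher. In ABT, VeWT, VeKO, PbWT and PbKO mice the injured tubule markers were called higher with UUO in 4 of 4 cases each. In the same order 4, 3, 3, 5 and 3 of the 5 proximal tubule markers and 5, 4, 3, 5 and 2 of the 5 thick ascending limb markers were called lower. So were 3, 2, 1, 3 and 2 of the 4 of the distal convoluted tubule, 1, 2, 2, 2 and 0 of the 5 of principal cells and 2, 2, 2, 4 and 1 of the 4 of intercalated cells. Of the 2 leukocyte markers tested 1, 1, 1, 2 and 0 were called higher, and of the 4 endothelial markers 1 was called higher in ABT and in PbWT mice and 1 lower in VeKO mice. Podocyte markers were called lower in PbWT mice (2 of 4) and in PbKO mice (1 of 4). Of the 2 fat markers tested 1 was called lower in PbWT mice. These 2 lists had no other call in the same groups. Urothelium, another epithelium rich in claudins, gave a sum of at most 165 CPM over 5 markers, in 1 VeKO CL library, and the highest count in any library lay between 9 (Upk2) and 69 (Upk1b) for the 5 markers. Its median went from 5.14 CPM in CL to 12.8 in UUO kidneys of IgG mice and from 2.13 to 18.9 in ABT mice, and from 24.2 to 6.71 in VeWT mice, with too few counts for a test of any marker in IgG and ABT mice and no call among the 3 markers tested in VeWT mice. The part of the makeup of the kidney in the claudin results was not tested.

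The other proteins of the tight junction were called about as often as genes at large in IgG mice. Of 35 listed partners (scaffolds, polarity proteins and other junction proteins), 33 were in the table. In IgG mice 6 of the 30 tested were higher in UUO kidneys (20%, against 16.3% of all genes) and 4 lower (13.3%, against 18.2%), with a median of 0.03 against 0.02 over all genes. Among the partners the adhesion receptor Cxadr (0.92, SE 0.19, adjusted p = 2.5e-04) and Lsr of the junctions where 3 cells meet (1.08, SE 0.24, adjusted p = 4.3e-04) rose. The polarity kinase Prkcz (-1.06, SE 0.20, adjusted p = 5.7e-05), Cgnl1 (-0.76, SE 0.15, adjusted p = 8.9e-05) and the kidney cadherin Cdh16 (-0.44, SE 0.12, adjusted p = 0.0047) fell. Between PbKO and PbWT UUO kidneys, where 12% of all genes were higher and 6.6% lower, 1 of 32 was higher, Cdh16 (0.46, SE 0.15, adjusted p = 0.0313), and 4 were lower, the scaffold Tjp1 (-0.89, SE 0.21, adjusted p = 0.0041), Cxadr (-0.55, SE 0.17, adjusted p = 0.0210), Jam2 (-1.24, SE 0.40, adjusted p = 0.0290) and Afdn (-0.48, SE 0.16, adjusted p = 0.0324).

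Among 24 genes known to regulate claudins or their genes, 4 of 19 tested rose (21.1%, against 16.3% of all genes) and 8 fell (42.1%, against 18.2%) with UUO in IgG mice, with a median of -0.29 against 0.02 over all genes. The kinase Wnk4, which phosphorylates claudins (-1.69, SE 0.26, adjusted p = 3.2e-06), the membrane protease Prss8 (-1.08, SE 0.12, adjusted p = 1.3e-08) and the transcription factor Hnf4a (-0.73, SE 0.12, adjusted p = 5.6e-06) fell. The transcription factors Elf3 (1.13, SE 0.33, adjusted p = 0.0065) and Zeb2 (1.01, SE 0.24, adjusted p = 0.0010) and the EGF receptor Egfr (0.56, SE 0.17, adjusted p = 0.0088) rose. Between PbKO and PbWT UUO kidneys 6 of 20 were higher (30%, against 12% of all genes) and 4 lower (20%, against 6.6%), with a median of 0.17 against -0.02 over all genes. Egf, a growth factor of the distal nephron, was higher by 3.01 (SE 0.25, adjusted p = 1.8e-08), Wnk4 by 1.01 (SE 0.23, adjusted p = 0.0022) and its relative Wnk1 by 0.58 (SE 0.14, adjusted p = 0.0055). Elf3 (-1.19, SE 0.31, adjusted p = 0.0073), Grhl2, an epithelial factor (-1.41, SE 0.45, adjusted p = 0.0261) and Zeb2 (-0.83, SE 0.22, adjusted p = 0.0085) were lower. The remaining 23 claudin rows of the table held 6 with no count in any library and 3 with enough counts to be tested. Of these Cldn5, the endothelial claudin, and Cldn15 were called in none of the comparisons of UUO with CL kidneys or of UUO kidneys between groups, with values of 0.17 (SE 0.27) and 0.36 (SE 0.24) for UUO in IgG mice and of -0.30 (SE 0.25) and -0.25 (SE 0.33) between PbKO and PbWT UUO kidneys. Cldn12 differed by -0.44 in IgG mice (SE 0.18, adjusted p = 0.0515). Cldn12 fell in PbWT mice (-0.71, SE 0.16, adjusted p = 0.0010) and was higher in PbKO than in PbWT UUO kidneys (0.53, SE 0.16, adjusted p = 0.0220).

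The genes whose levels ran most like each claudin were taken by Pearson's r over the 75 libraries, on log2(CPM + 1) centred within arm and form of name, among 9554 genes tested in all arms. As UUO and CL kidneys are pooled, a shared response to obstruction, depth and library composition enter each r. Nearest to Cldn10 were Khk (0.95), the first enzyme of fructose use, and the mitochondrial genes Atp5f1 (0.95) and Uqcrc2 (0.95). Nearest to Cldn4 were C3 (0.91), Aoc1 (0.91) and Anxa2 (0.91), and to Cldn1 Myof (0.88), Anxa3 (0.87) and Cp (0.87). Nearest to Cldn8 were Car2 (0.78), the potassium channel Kcnj1 (0.76), also 1 of the thick ascending limb markers above, and the vasopressin receptor Avpr2 (0.75). Cldn7 ran most like Anxa6 (0.83), Sytl2 (0.80) and Alox5ap (0.80), Cldn3 like Plp2 (0.74), Loxl1 (0.73) and Cygb (0.72), and Cldn2 like Gm48342 (0.77), Rab11fip3 (0.75) and Suclg2 (0.74). The values were lower for Cldn19 (Aif1l, 0.68; Gm4450, 0.67; Tmem72, 0.67) and Cldn16 (1500002C15Rik, 0.65; Ppib, 0.64; Mrpl1, 0.63). With a pseudocount of 5 CPM 22 of the 27 names remained, and without centring 3, Plp2, Atp5f1 and Tmem72. Among the claudins themselves, within groups and forms of name, the 36 pairs had r from -0.38 to 0.50 (median 0.17), with 5 over 0.4, the largest for Cldn10 with Cldn16 (0.50), Cldn1 with Cldn7 (0.49) and Cldn1 with Cldn4 (0.43).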

How the data were processed

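RNA of whole kidneys was sequenced by Smart-seq3 with 4 wells per sample. The authors merged the wells, mapped reads with STAR 2.7.3a, removed duplicates by molecular identifier with UMI-tools 1.1.4 and counted them on genes of mm10 with featureCounts (Subread 1.4.6-p5), per the labels and the study's methods. The deposited values are raw counts per gene, and all 75 columns were matched to a sample by title.

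Groups were taken from the labels. Counts were fitted with edgeR 4.0.16 in R 4.3.3, using TMM scaling, filterByExpr by group and the quasi-likelihood test, in 1 fit per arm and 5 comparisons each, 15 in all. The Benjamini-Hochberg adjustment ran over all genes tested, and the threshold was 0.05. The study used edgeR's exact test, run here as an alternative beside DESeq2 1.42.0, no TMM, no filter, all 12 groups in 1 fit, the form of library name, each form alone, leaving out each library, a replicate block, and sets without doubtful libraries. The log2 fold changes printed include a small count that edgeR adds to damp values from few reads. The SE is the size of the log2 fold change without that count, divided by the square root of F. The procedure was tested on simulated data. Numbers in ABT library names (9, 11 and 12) were taken to pair UUO and CL libraries, as the deviations from the group means of same-numbered libraries correlated at 0.160 to 0.387 and those of others at -0.262 to 0.099. The claudins and the gene lists were chosen with earlier results of these data known. All 9 claudins were named, with the other claudins that were tested, the 3 genes nearest each claudin by r, and from the 2 lists of partners and regulators the 3 called genes with the lowest adjusted p in each direction, for UUO in IgG mice and for PbKO against PbWT UUO kidneys. Afdn was named after its value was seen. A gene that this rule names among the partners is not reported here. Depth limits the low genes, with 3 libraries at 0 for Cldn3.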

Additional observations from a re-analysis of the deposited data

Results flagged for a closer look

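Among 108 sets of claudin values per group, 5 held 1 library far from the rest of its group by Dixon's test, about what chance gives at 1 in 20. Cldn4 stood at 27.8 CPM in ABT CL replicate 5, with the next library at 16.0, and at 39.8 CPM in PbWT CL replicate 2, with the next at 12.0. Cldn8 stood at 145 CPM in IgG UUO replicate 5, with the next at 97.9, and at 46.8 CPM in VeWT UUO replicate 4, the lowest, with the next at 91.4. Cldn16 stood at 46.8 CPM in VeKO CL replicate 1, with the next at 29.2. The response of Cldn10 to UUO differed between PbKO and PbWT mice by 1.04 on the log2 scale (edgeR's quasi-likelihood test of the difference itself, SE 0.18, adjusted p = 5.5e-04), with UUO libraries labelled PbKO at 401 to 468 CPM and PbWT UUO libraries at 198 to 259.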

How the results depend on the processing

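Of 2542 claudin fold changes computed in other fits, 2367 kept their direction and side of the threshold, 55 lost a call and 57 gained one. The other 63 had the opposite sign with no call in either fit. Most of these fits left out 1 library, often from a group not compared, so the part kept overstates agreement between ways of processing. Counted were the 6 comparisons of UUO with CL kidneys, ABT with IgG in UUO kidneys, and PbKO with PbWT in UUO kidneys and in the response. The number of claudins called for UUO in VeKO mice, 2 as reported, was the count most open to the processing, and the share of all genes called, 7.96% as reported, moved with it. It was 4 in 1 fit over all 12 groups (14.7% of all genes), 5 with the form of name as a covariate (21.5%) and 5 among joined names alone (21.1%), 1 by edgeR's exact test (7.08%), 1 without TMM (7.18%) and 1 without the filter (4.11%), 0 among plain names alone (0%) and 0 without the joined-name numbers 3, 4, 7 and 8 (0.979%). The 4 calls in VeWT mice (18.4% of all genes) became 2 without those numbers (7.38%) and 2 without the libraries with both Xist and Y counts (14%), which was an alternative added once the data had been seen. The 5 calls in ABT mice (25.1% of all genes) became 3 among plain names alone (11.6%). In 1 fit over all 12 groups the 2 calls in PbKO mice became 1 (from 6.37% to 1.02% of all genes), the 3 between PbKO and PbWT UUO kidneys 0 (from 18.6% to 2.64%) and the 1 in the difference of their responses 0 (from 8.55% to 0.0819%). Without TMM the 3 became 5 (28.9%), with Cldn3 and Cldn4 lower, and the share of higher among all genes called there moved from 64.6% to 20.8%. The cause was not tested for any of these. The other shares of higher calls moved without TMM from 47.3% to 69.7% (IgG), 50.3% to 66.7% (ABT), 54.5% to 71.9% (VeWT), 56.2% to 71.7% (VeKO), 48.1% to 79.4% (PbWT), 62.1% to 78.9% (PbKO) and 77.8% to 31.8% (difference of the PbKO and PbWT responses).

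With the number in the name as a replicate block, 7 claudins were called for UUO in ABT mice (31.3% of all genes), and 5 (24.3%) in the same 6 libraries without it. In the Veptp arm the 4 same-numbered pairs of joined names with 1 genotype correlated at 0.0581 to 0.394 and the 4 of opposite genotypes at 0.128 to 0.426. The 56 pairs of different numbers correlated at -0.417 to 0.364 (median -0.0307), so the ranges overlapped, unlike in ABT mice. Of the 16 libraries 10 correlated best with their own number. As 1 pair lay under 0.1, a bound chosen without a test, the libraries were taken to share only a number. Whether the numbers are those of mice, and with them the genotype labels of the opposite pairs, cannot be told from the labels. The block gave 6 calls in VeKO (26.4% of all genes) and 5 in VeWT mice (23%).

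When 1 library was left out at a time, the number of claudins called ranged from 5 to 8 in IgG, 4 to 5 in ABT, 3 to 4 in VeWT, 1 to 2 in VeKO, 6 to 8 in PbWT and 2 to 3 in PbKO mice, from 2 to 4 between PbKO and PbWT UUO kidneys and from 1 to 2 in the difference of their responses. It was 0 in each fit of the other comparisons. With all libraries kept, 34.5%, 25.1%, 18.4%, 7.96%, 37.3%, 6.37%, 18.6% and 8.55% of all genes were called in the 8 comparisons named, in that order. How these shares moved when a library was left out is not given here.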
